A study of Mus musculus with 38 samples.

Results

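The enzymes and binding proteins that set and read DNA methylation and histone marks were followed in Tcf21 lineage cells of mouse visceral fat. The set holds 43 genes, taken by symbol from the authors' TPM tables of 25746 genes, and all 43 were found. They were chosen by name for their roles, with earlier results of these data known. The roles are DNA methyltransferases, TET dioxygenases, methyl-CpG binding domain proteins, both Polycomb repressive complexes, histone deacetylases, histone lysine demethylases, histone writers and SWI/SNF remodelling subunits. All 43 had at least 1 TPM (a transcript level scaled for gene length and library size) in at least 2 of 29 RNA libraries and were tested.

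Tcf21, a transcription factor of the basic helix-loop-helix family, is expressed by stromal progenitors of visceral fat. Cells of its lineage, 5000 per library, had been isolated by flow cytometry and used for RNA-seq (29 libraries) or for ATAC-seq (9 libraries), which maps open chromatin. RNA came from wild-type (WT) cells at postnatal day 12 (P12, n = 2), from Tcf21 knockout (KO, n = 5) and WT (n = 7) cells at 3 weeks of age (3W), from KO (n = 2) and WT (n = 4) cells given 1 week of a high-fat diet (1W HFD), from KO (n = 2) and WT (n = 5) cells after 12 weeks of it (12W HFD), and from WT cells at 6 months (6M, n = 2). The ATAC-seq libraries were 2 of KO and 3 of WT cells at 3W, and 2 of WT cells each at 1W HFD and 12W HFD. High-fat diet began at 6 weeks of age, while P12, 3W and 6M animals were on regular diet, so diet and age cannot be told apart between the diet groups and 3W. All labels describe MerCreMer, a Cre recombinase switched on by tamoxifen, with doses of 75 mg/kg per day by gavage for adults, pregnant females included, and 100 µg per day for neonates. The labels used here give neither the gene that drives MerCreMer, nor the Tcf21 allele, nor which dose each group had. Whether libraries of a group came from separate animals is also not given, so p-values measure the spread between libraries. The genotype field of the labels differs from the sample titles in 22 of 38 samples, and matches all 38 when read in reverse order. Groups follow the titles.

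Tcf21 itself checked the titles. Its mean level at 3W was 35.2 ± 18.3 TPM in KO cells and 64.9 ± 27.0 TPM in WT cells (SD, n = 5 and 7; two-sided exact permutation p = 0.0341, smallest possible 0.00126), which is 54.3% of the WT level. KO cells read 53.2% of WT after 1W HFD (exact permutation p = 0.467, smallest possible 0.0667) and 39.0% after 12W HFD (exact permutation p = 0.0476, the smallest possible). The 3W call is lost without any 1 of 6 libraries (KO replicates 1, 3 or 5, WT replicates 2, 4 or 6), with exact permutation p up to 0.0879. The 3W titles also give 5 pairs, and within them Tcf21 was lower in KO cells in 5 of 5, at 46.7% to 57.5% of the WT level of its pair, where 1 pair has 2 WT libraries, whose mean was used, and WT replicate 4 has none. The paired differences averaged -0.89 on the log2 scale (SD 0.11), and the exact test that flips their signs gave p = 0.0625, which is as low as 5 pairs can go. Each library had 10894 to 12825 genes at 1 TPM or more. The read depth behind them is unknown, so values carry no counting interval. Fibroblast and progenitor markers (16 genes, none listed at 0 in any library) summed to 30309.5 to 70546.6 TPM. Markers of the sorted lineage and of other cells both moved with age and diet. Among the 16, Tcf21 (-3.74), Col1a1 (-2.99), Col1a2 (-2.40) and Col3a1 (-1.38) were called lower at 6M than at 3W, with Ly6a and Dpp4 called higher. At 12W HFD against 3W, Tcf21 (-2.62), Col1a1 (-1.96), Col1a2 (-1.61), Col3a1 (-1.16) and Cd34 (-0.98) were called lower, with Ly6a and Dpp4 again higher (log2 changes in WT). The 20 macrophage markers summed to 291.6 to 305.5 TPM at P12, 84.0 to 387.5 TPM in WT at 3W, 963.6 to 1362.7 TPM in WT after 1W HFD, 5176.1 to 16110.7 TPM in WT after 12W HFD and 4640.6 to 10295.0 TPM at 6M. In KO cells they summed to 159.4 to 1107.7 TPM at 3W, 1894.5 to 1980.0 TPM after 1W HFD and 4417.4 to 7823.2 TPM after 12W HFD. Up to 2 of the 20 were listed at 0 in a library at P12 or 3W, up to 1 after 1W HFD, and 0 at 12W HFD or 6M. The 8 erythroid (red blood cell) markers summed to 9.7 and 885.2 TPM at P12 and 9147.8 and 39146.1 TPM at 6M. In other WT groups the sums were 1116.2 to 9501.5 TPM (3W), 916.3 to 7336.3 TPM (1W HFD) and 3615.7 to 41716.3 TPM (12W HFD). Those of KO cells were 577.7 to 6731.9 TPM (3W), 6048.1 and 8281.7 TPM (1W HFD) and 3480.2 and 15876.6 TPM (12W HFD). The part of erythroid RNA in the results was not tested.

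DNA methylation is laid down on CpG dinucleotides by Dnmt3a and Dnmt3b and copied at replication by Dnmt1, which Uhrf1 brings to newly made DNA. TET dioxygenases oxidise the mark, and methyl-CpG binding domain proteins read it or belong to repressor complexes. Polycomb repressive complex 2 methylates histone H3 at lysine 27, complex 1 binds that mark and ubiquitinates H2A, histone deacetylases remove acetyl groups, and Ep300 and Crebbp add them. In fat tissue these enzymes are known for their part in holding precursor cells in their state and in adipocyte formation.

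In WT cells at 3W the most abundant of the 43 were a remodelling ATPase and the class I deacetylases. Smarca2, one of the alternative ATPases of SWI/SNF, averaged 154 ± 32.3 TPM (SD, n = 7), followed by Hdac1 at 96.1 ± 21.0 TPM, Hdac2 at 78.3 ± 13.0 TPM and Hdac3 at 78.1 ± 21.7 TPM. Mbd3, a subunit of the NuRD repressor complex, averaged 63.9 ± 23.6 TPM, the de novo methyltransferase Dnmt3a 61.8 ± 13.1 TPM, and Eed, the Polycomb subunit that binds methylated lysine 27, 57.5 ± 16.9 TPM. Hdac1 lay above Hdac2 by more than the SD of Hdac2 and less than its own, and from Hdac2 down to Eed neighbours differed by less than 1 SD of either gene. At the low end stood Dnmt1 (4.62 ± 1.79 TPM), Hdac9 (2.13 ± 3.71 TPM), the Polycomb reader Cbx2 (1.90 ± 2.25 TPM), Uhrf1 (1.60 ± 1.45 TPM) and Dnmt3b (0.821 ± 0.477 TPM). Over all 29 libraries 6 members averaged at least 50 TPM, 19 lay at 10 to 50 TPM, 15 at 2 to 10 TPM and 3 under 2 TPM. Only Uhrf1 and Hdac9 were listed at 0 in some library.

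Related members were unequal in level. Dnmt3a exceeded Dnmt3b in 29 of 29 libraries, with a log2 ratio of (TPM + 1) values between 1.33 and 5.82. That ratio lay between 2.18 and 4.01 in WT after 1W HFD and between 4.30 and 5.82 in WT at 3W, with no overlap. Smarca2 exceeded Smarca4, the other SWI/SNF ATPase, in 29 of 29 libraries (1.98 to 4.87). The ratio of Ezh1 to Ezh2, the alternative lysine 27 methyltransferases of Polycomb complex 2, changed sides between libraries. It was positive in 20 of 29, negative in both P12 libraries (-1.84 and -0.01), between -1.76 and 1.62 in WT at 3W, and positive in 4 of 4 WT libraries after 1W HFD (1.47 to 3.41). It was positive as well in both KO libraries after 1W HFD (1.59 and 1.77), both at 12W HFD (0.37 and 1.66) and both WT libraries at 6M (1.07 and 1.70). In WT at 12W HFD it was positive in 4 of 5 (-1.01 to 1.32). Cbx7 exceeded its fellow Polycomb chromobox protein Cbx8 in 10 of 29 libraries. Of the TET dioxygenases Tet2 averaged 16.5 ± 11.8 TPM in WT at 3W, Tet1 9.89 ± 3.38 TPM and Tet3 2.98 ± 1.46 TPM, with Tet2 and Tet3 highest in WT replicate 2. These ratios and levels are descriptions, with no test of their own.

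**Figure D1:**
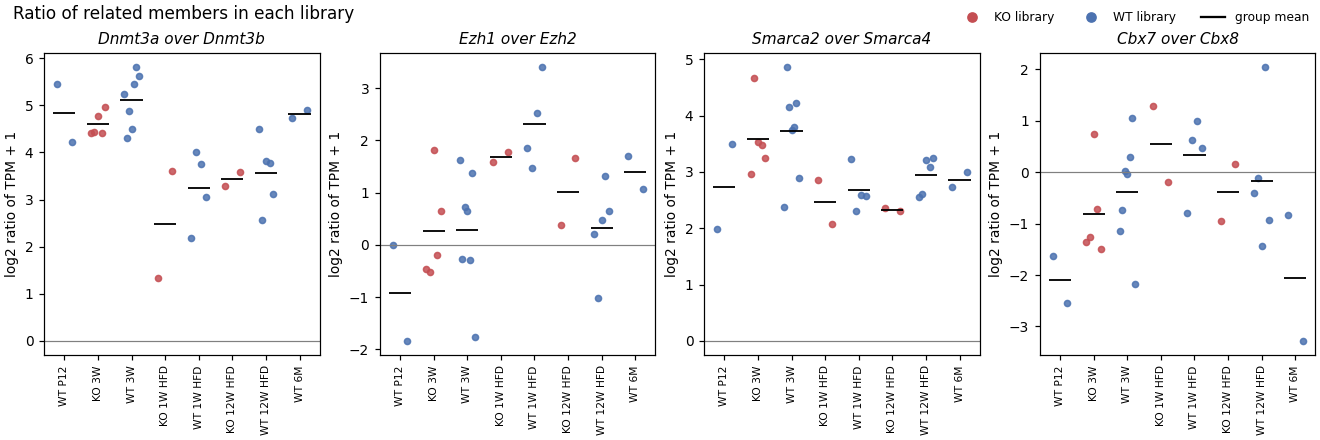
Log2 ratio of (TPM + 1) values of 4 pairs of related members in each of 29 RNA libraries, by group, with KO libraries in red, WT libraries in blue and a line at the group mean. Dnmt3a over Dnmt3b and Smarca2 over Smarca4 are above 0 in every library, while Ezh1 over Ezh2 lies at 1.47 to 3.41 in WT after 1W HFD and on both sides of 0 at 3W. It is also above 0 in every KO library of both diet groups and at 6M.

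KO and WT cells were compared first. KO cells still held 54.3% (3W), 53.2% (1W HFD) and 39.0% (12W HFD) of the WT Tcf21 level, so Tcf21 RNA was not absent. The limma fit described next called Tcf21 itself at none of these ages, so a member that was not called is not shown to be unaffected. At 3W none of the 43 members passed the threshold (limma on log2(TPM + 1), Benjamini-Hochberg adjusted p under 0.05 over 15659 genes; 0% of all genes passed), and 0 of 43 had an unadjusted p under 0.05, against 3.49% of all genes. The groups overlapped for all 43 (0.0766% of all genes did not overlap). The fit did not use the pairs that the titles give at 3W, and a block by these pairs called no member either. The smallest p values belonged to Hdac2 (-0.35 ± 0.24), Kmt2a (-0.50 ± 0.35), a lysine 4 methyltransferase, Hdac8 (-0.40 ± 0.28), the mainly cytoplasmic deacetylase Hdac6 (0.55 ± 0.41) and Dnmt3b (0.38 ± 0.28), each a log2 change ± SE with an adjusted p of 1. The median change was -0.12 over the members and 0.01 over all genes, with 31 of 43 members below 0. The 95% intervals reached at most 1.05 to either side of an estimate on the log2 scale. Differences up to the far end of an interval are not excluded, and that end can lie further than 1.05 from 0. Fewer cells of a type and less RNA per cell cannot be told apart in bulk libraries, here or in any comparison that follows.

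Hdac2, the class I deacetylase with the smallest p at 3W, read 51.4, 88.0, 40.9, 60.02 and 72.7 TPM in KO cells, and 63.8 TPM (lowest), 72.3 TPM (median) and 102 TPM (highest) in WT cells. Of the KO libraries 3 lay below every WT library and the other two within the WT range. Dnmt3a read 41.6, 56.4, 62.5, 53.0 and 64.2 TPM in KO cells, against 41.4 TPM (lowest), 59.2 TPM (median) and 80.6 TPM (highest) in WT cells. All KO values fell inside the WT range.

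After 1W HFD, 0 of 43 members passed (0.0255% of all genes), and 1 had an unadjusted p under 0.05 (3.45% of all genes). This was Uhrf1 (ENSMUSG00000001228, mm10 chromosome 17, 56303321 to 56323486), the partner of Dnmt1, at 2.93 and 8.03 TPM in KO cells, against 0.56, 0.64, 1.59 and 0 TPM in WT cells. Both KO libraries lay above all WT libraries, and the log2 change was 1.89 ± 0.76 (unadjusted p = 0.0185, limma adjusted p = 1). It was 1.29 without KO replicate 2 and 2.49 without KO replicate 1. Dnmt1 itself read 4.63 and 11.6 TPM in KO cells and 1.87, 4.12, 7.14 and 6.97 TPM in WT cells, which overlap. The others with the smallest p were Mbd1, a methyl-CpG binding repressor (0.67 ± 0.40), Dnmt3b (0.70 ± 0.42), the lysine 4 demethylase Kdm5a (-0.42 ± 0.26) and the Polycomb subunit Suz12 (-0.81 ± 0.58), each with an adjusted p of 1. Dnmt3b rested on one library: it read 6.05 and 1.45 TPM in KO cells, and 1.45, 1.26, 1.78 and 1.81 TPM in WT cells, and its change was -0.07 without KO replicate 1. For 6 of 43 members (14%) the groups did not overlap, against 11.4% of all genes.

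The KO libraries highest in Uhrf1 also held much cell cycle RNA. The 18 mitosis genes summed to 182.8 and 716.2 TPM in KO cells after 1W HFD, and the 22 DNA replication genes to 246.7 and 679.5 TPM, with KO replicate 2 high for both lists and for Uhrf1 and Dnmt1. In WT cells the mitosis genes summed to 31.1 to 260.8 TPM and the replication genes to 260.8 to 307.0 TPM. At 3W KO replicate 1 stood apart in the same way, with Uhrf1 at 11.9 TPM, Dnmt1 at 9.68 TPM, mitosis genes at 959.2 TPM and replication genes at 765.0 TPM. The 4 others of that group had Uhrf1 at 0.05, 0.50, 1.33 and 2.88 TPM and mitosis genes between 64.8 and 369.9 TPM, against Uhrf1 at 0.24 TPM (lowest), 0.97 TPM (median) and 3.86 TPM (highest) and mitosis genes between 57.4 and 488.4 TPM in WT cells. Both lists lay mostly above 0 in KO minus WT after 1W HFD (17 of 18 mitosis genes, median 1.51, and 19 of 22 replication genes, median 0.59), and 0 of them passed the threshold. The genes with the smallest p were Ube2c (2.05 ± 0.87) and Cdk1 (2.16 ± 1.03) among the mitosis genes and Mcm7 (1.38 ± 0.54) and Tyms (1.01 ± 0.46) among the replication genes, each with adjusted p = 1. Markers of other cells differed as well. Of 11 mesothelial markers 10 were above 0 (median 1.82) and Lrrn4 was called higher (2.59 ± 0.34, adjusted p = 0.00023), one of the 4 genes called in this comparison. The mesothelial markers summed to 194.5 and 94.8 TPM in KO cells, with 0 and 3 of 11 listed at 0, and to 80.3 to 124.1 TPM in WT cells, with 2 to 8 listed at 0. The macrophage markers were above 0 for 20 of 20 (median 0.66), with 0 called. The part of cell cycle RNA or of these cell types in the Uhrf1 difference was not tested.

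**Figure D2:**
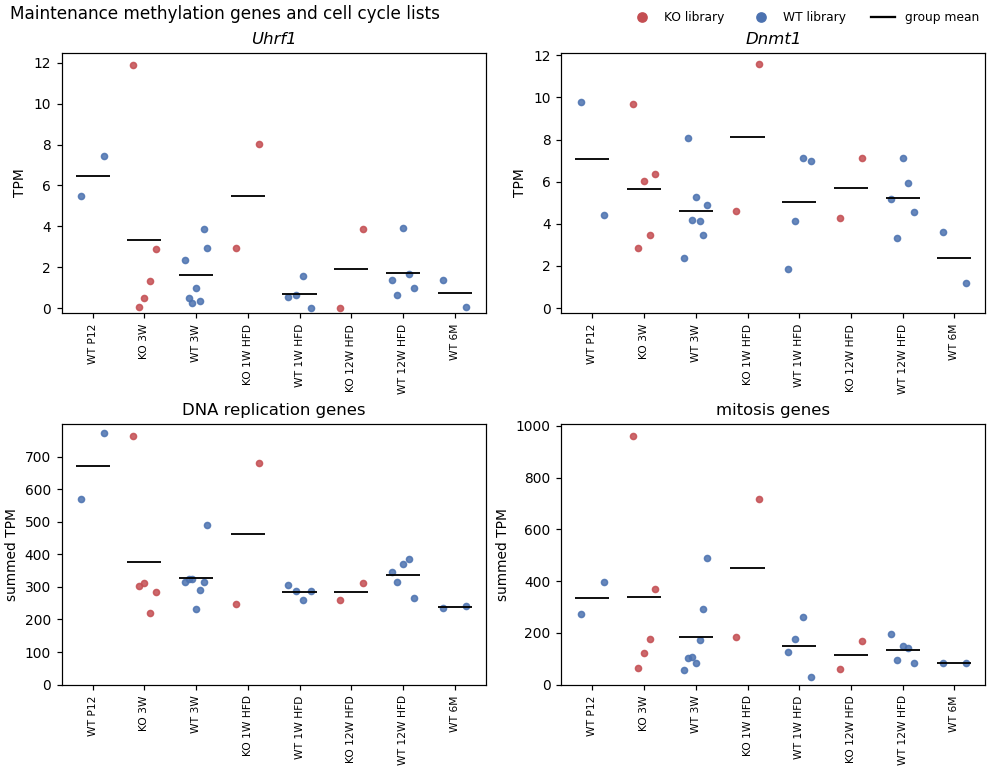
TPM of Uhrf1 and Dnmt1 (upper panels) and summed TPM of 22 DNA replication and 18 mitosis genes (lower panels) in each RNA library by group, with a line at the group mean. Both P12 libraries, KO replicate 1 at 3W and KO replicate 2 after 1W HFD carry the 4 highest Uhrf1 levels (5.49, 7.44, 11.9 and 8.03 TPM).

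The 250 bases before an annotated start of each of these maintenance genes are shown for the sequence the pair shares. The capitals mark a match to the E2F consensus, the site of factors that switch on genes for DNA synthesis. Both are read 5′ to 3′ on the gene's strand. The first is Uhrf1, GRCm38.p6 chr17:56304063-56304312, plus strand, and the second is Dnmt1, chr9:20952624-20952873, minus strand, where the match lies on the opposite strand and a second one, not shown, reaches past the start. Each gene has further starts in the annotation with no match in the same stretch. The Dnmt1 stretch may hold exon or intron sequence of transcripts that begin further upstream, so it is not to be read as promoter alone.
Uhrf1: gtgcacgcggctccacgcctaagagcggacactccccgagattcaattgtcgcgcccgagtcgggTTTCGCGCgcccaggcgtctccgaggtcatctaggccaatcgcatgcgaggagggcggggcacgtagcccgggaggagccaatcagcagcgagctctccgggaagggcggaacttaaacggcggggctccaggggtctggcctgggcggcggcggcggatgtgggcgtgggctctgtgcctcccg
Dnmt1: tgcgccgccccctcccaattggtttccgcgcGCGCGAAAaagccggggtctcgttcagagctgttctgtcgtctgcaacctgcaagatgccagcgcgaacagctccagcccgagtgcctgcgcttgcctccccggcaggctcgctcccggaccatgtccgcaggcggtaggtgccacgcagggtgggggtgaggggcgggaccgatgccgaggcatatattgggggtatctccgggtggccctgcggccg

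At 12W HFD, 0 of 43 members passed between KO and WT (0.00639% of all genes), and 0 had an unadjusted p under 0.05 (3.64% of all genes). The smallest p values were those of Hdac9 (-0.94 ± 0.62), a class IIa deacetylase, Smarca2 (-0.34 ± 0.24), Bmi1 (0.58 ± 0.44), the Polycomb complex 1 subunit that partners Rnf2, Eed (-0.33 ± 0.27) and Hdac5 (-0.63 ± 0.53), all with adjusted p = 1. Smarca2 read 74.2 and 86.9 TPM in KO cells, and 109, 92.4, 101, 100.3 and 109 TPM in WT cells. Both KO libraries lay below every WT library. Hdac9 read 0 and 0.46 TPM in KO cells, and 1.74, 2.11, 1.05, 1.19 and 0.75 TPM in WT cells, again with no overlap and at low levels. Groups did not overlap for 4 of 43 members (9.3%), near the 9.94% of all genes.

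The KO effect was also compared between ages by an interaction term. None of the 43 passed for 1W HFD minus 3W, 12W HFD minus 3W or 12W HFD minus 1W HFD (limma adjusted p = 1 for the smallest of each; 0.00639%, 0% and 0.0128% of all genes passed), and none had an unadjusted p under 0.05, against 2.64%, 2.68% and 2.76% of all genes. The largest term was Uhrf1 for 12W HFD minus 1W HFD, at -2.08 ± 1.05 (unadjusted p = 0.0575).

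**Figure D3:**
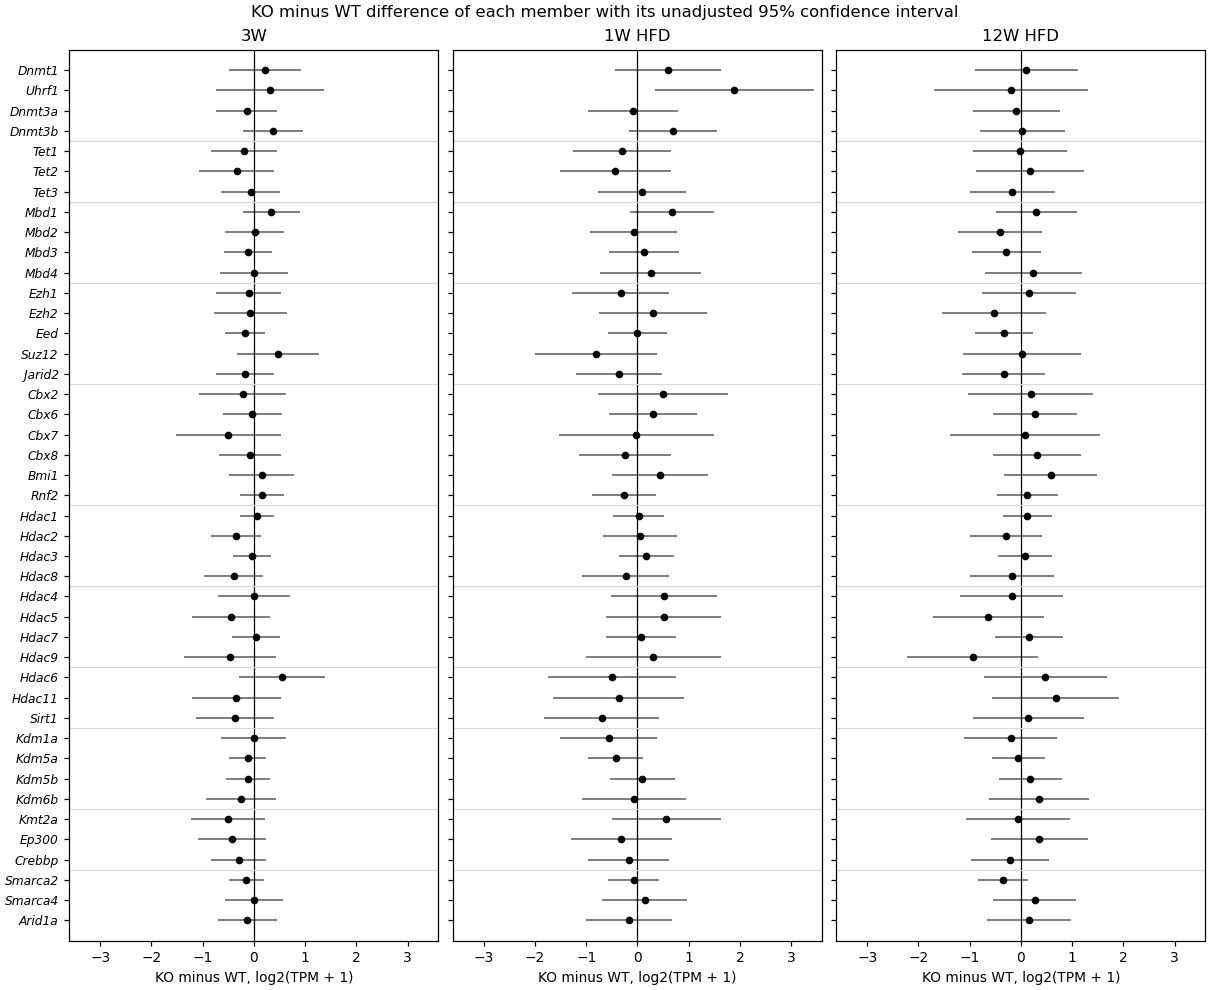
KO minus WT difference in log2(TPM + 1) of the 43 members at 3W, 1W HFD and 12W HFD, with the unadjusted 95% interval of the limma fit as a bar and 0 as a vertical line. The interval of Uhrf1 after 1W HFD is the only one of the 129 that does not reach 0.

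WT cells at 3W were then set against P12, the suckling stage. No member passed (1.63% of all genes passed), and 3 of 43 had an unadjusted p under 0.05 (14.2% of all genes). Uhrf1 read 0.24 TPM (lowest), 0.97 TPM (median) and 3.86 TPM (highest) at 3W, and 5.49 and 7.44 TPM at P12. All 3W libraries lay below both P12 libraries, which held for no other member (groups did not overlap for 8% of all genes), and the change was -1.70 ± 0.70 (adjusted p = 0.249). Smarca2 (0.49 ± 0.23, adjusted p = 0.316) and Cbx7 (1.42 ± 0.68, adjusted p = 0.344) were the other two, followed by Hdac5 (1.00 ± 0.51) and the thymine glycosylase Mbd4 (-0.78 ± 0.44). Replication genes summed to 231.3 to 490.8 TPM at 3W and 569.7 to 771.8 TPM at P12, with 2 of 22 called lower, Mcm3 (-2.07 ± 0.50, adjusted p = 0.0292) and Mcm4 (-1.32 ± 0.35, adjusted p = 0.0441), both helicase subunits. Of 16 endothelial markers 9 were called lower at 3W, with sums of 66.6 to 129.6 TPM at 3W and 369.1 to 1170.7 TPM at P12. Of the erythroid markers Hba-a1 (5.34), Hba-a2 (5.51), Hbb-bt (4.93) and Hbb-bs (4.81) were called higher at 3W. The part of any of these lists in the Uhrf1 values was not tested. The median of the members was -0.27, and that of all genes -0.04.

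The first high-fat diet comparison, WT after 1W HFD against WT at 3W, gave 5 members called lower and 0 called higher (11.6% of members; 8.03% of all genes were called, and 3.25% called lower). At an unadjusted p under 0.05 stood 8 of 43, against 21.7% of all genes, and groups did not overlap for 3 of 43, against 6.02%. The 5 came from 5 roles: the de novo methyltransferase Dnmt3a, the NuRD subunit Mbd3, the class I deacetylase Hdac2, the remodelling ATPase Smarca2 and the Polycomb methyltransferase Ezh2. Both groups differ in age and diet, and the 3W libraries serve in this and the next comparisons with 3W.

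Dnmt3a (ENSMUSG00000020661, mm10 chromosome 12, 3806007 to 3914443) read 10.1, 35.5, 36.3 and 22.5 TPM after 1W HFD, and 41.4 TPM (lowest), 59.2 TPM (median) and 80.6 TPM (highest) at 3W. All 1W HFD libraries lay below all 3W libraries, and the gene fell by 1.34 on the log2 scale (SE 0.31, adjusted p = 0.00709). Smarca2 (ENSMUSG00000024921, chromosome 19, 26605050 to 26778322) read 94.8, 105, 97.8 and 92.0 TPM after 1W HFD, and 117 TPM (lowest), 145 TPM (median) and 216 TPM (highest) at 3W. It also showed no overlap, with a tight diet group, and changed by -0.63 ± 0.18 (adjusted p = 0.027).

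Hdac2 (ENSMUSG00000019777, chromosome 10, 36974544 to 37001889) read 16.5, 57.5, 61.6 and 43.6 TPM after 1W HFD, and 63.8 TPM (lowest), 72.3 TPM (median) and 102 TPM (highest) at 3W. The groups did not overlap, though the highest diet library came within a few TPM of the lowest at 3W (-0.93 ± 0.26, adjusted p = 0.0232). Mbd3 (ENSMUSG00000035478, chromosome 10, 80392539 to 80399550) read 15.7, 37.4, 31.2 and 43.4 TPM after 1W HFD, and 42.6 TPM (lowest), 52.9 TPM (median) and 98.0 TPM (highest) at 3W, with 1 diet library above the lowest 3W library (-0.99 ± 0.24, adjusted p = 0.0105). Ezh2 (ENSMUSG00000029687, chromosome 6, 47530139 to 47595341) read 10.04, 8.98, 5.15 and 2.61 TPM after 1W HFD, and 7.98 TPM (lowest), 13.0 TPM (median) and 32.9 TPM (highest) at 3W (-1.29 ± 0.37, adjusted p = 0.0295). Of its diet libraries 2 lay above the lowest 3W library.

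Replicate 1 of 1W HFD was the lowest of its group for Dnmt3a, Mbd3 and Hdac2. Without it 1 of the 5 calls held, that of Ezh2; adjusted p was 0.0544 for Dnmt3a, 0.0759 for Mbd3, 0.155 for Hdac2 and 0.0637 for Smarca2. Without replicate 3 or 4 of 1W HFD or replicate 2 of 3W, 3, 2 and 3 calls held. Ezh2 lost its call without 1W HFD replicate 3 or 4 or 3W replicate 2, 5 or 7 (adjusted p 0.053 to 0.164), Smarca2 without 1W HFD replicate 3 or 4 or 3W replicate 2 (0.0541 to 0.0849), and Hdac2 without 1W HFD replicate 4 (0.0502). A fit on the compared groups alone called Dnmt3a and Smarca2 only.

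The nearest relatives of Dnmt3a, Ezh2 and Smarca2 did not pass. Dnmt3b read 1.26 to 1.81 TPM after 1W HFD and 0.33 to 1.74 TPM at 3W. Ezh1 read 26.7 to 38.8 TPM after 1W HFD and 8.53 to 31.3 TPM at 3W, and Smarca4 read 9.22 to 20.5 TPM after 1W HFD and 6.42 to 24.9 TPM at 3W. All 3 ranges overlap. Hdac1 read 82.4 to 99.1 TPM after 1W HFD and 61.4 to 121 TPM at 3W, with the diet values inside the 3W range. Of the 20 macrophage markers 16 were called higher in this comparison, and of 16 endothelial markers 9. Endothelial markers summed to 215.7 to 593.0 TPM after 1W HFD and 66.6 to 129.6 TPM at 3W. Of the fibroblast and progenitor markers Tcf21 (-1.57) was called lower, and Ly6a (2.11) and Dpp4 (2.49) higher. The replication genes Prim1 (-1.42) and Cdt1 (-1.29) and the immediate early gene Jund (-1.88) were called lower. The part of any of these in the lower levels of the 5 members was not tested.

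Between 12 and 1 weeks of diet in WT cells, 1 member was called higher and 2 lower (6.98% of members; 5.93% of all genes were called, 3.54% higher and 2.39% lower). Groups did not overlap for 7 of 43 members (16.3%), against 10.5% of all genes, and 7 had an unadjusted p under 0.05, against 18.1%. Tet1 (ENSMUSG00000047146, chromosome 10, 62804570 to 62908996), a TET dioxygenase, read 0.84, 3.65, 1.86, 4.63 and 2.41 TPM at 12W HFD, and 12.04, 6.08, 4.67 and 7.47 TPM at 1W HFD. The groups did not overlap, by a margin of hundredths of a TPM (-1.25 ± 0.36, adjusted p = 0.0344). Hdac7, a class IIa deacetylase also known from endothelial cells and lymphocytes, read 9.39, 21.4, 15.4, 11.95 and 15.3 TPM at 12W HFD, and 18.9, 29.8, 41.0 and 28.8 TPM at 1W HFD, with overlap of 1 library on each side (-0.96 ± 0.26, adjusted p = 0.0233). Mbd3 read 48.8, 60.1, 67.5, 50.9 and 59.4 TPM at 12W HFD, all above the 15.7, 37.4, 31.2 and 43.4 TPM at 1W HFD (0.91 ± 0.26, adjusted p = 0.0349).

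Ezh2 (1.09 ± 0.40, adjusted p = 0.115) and Bmi1 (0.95 ± 0.35, adjusted p = 0.121) had the next smallest p and did not pass. Ezh2 read 15.0, 21.8, 10.4, 12.2 and 12.7 TPM at 12W HFD, with all 5 above the 4 libraries of 1W HFD. Each of the 3 calls depended on single libraries. Tet1 lost its call without 1W HFD replicate 1, 2 or 4 or 12W HFD replicate 1, 3 or 5 (adjusted p 0.0561 to 0.144), Hdac7 without 1W HFD replicate 2, 3 or 4 or 12W HFD replicate 1 (0.059 to 0.117), and Mbd3 without 1W HFD replicate 1 or 3 or 12W HFD replicate 2, 3 or 5 (0.0621 to 0.195). One call was left without any 1 of the 4 libraries of 1W HFD or without 12W HFD replicate 1, 3 or 5, and a fit on the compared groups alone called Hdac11 (chosen after its values were seen) in place of the 3. Of the macrophage markers 17 of 20 and of the lymphocyte markers 8 of 13 were called higher at 12W HFD, and 1 of 16 endothelial markers (Tek) and 2 of 16 fibroblast and progenitor markers (Cd34 and Col1a2) lower. Their part in these 3 results was not tested.

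A direct comparison of 12W HFD with 3W, added after the data were seen and sharing libraries with both comparisons above, called 4 members lower and 0 higher (9.3% of members; 14.2% of all genes were called, 6.23% lower). Groups did not overlap for 3 of 43, against 7.59% of all genes, and 8 had an unadjusted p under 0.05, against 25.8%. Tet1 was the strongest, with 5 libraries from 0.84 to 4.63 TPM at 12W HFD against 6.47 TPM (lowest), 8.99 TPM (median) and 15.0 TPM (highest) at 3W (-1.61 ± 0.31, adjusted p = 0.000456). Its groups were clear of each other, and the call held without any single library. Dnmt3a read 28.1, 15.0, 34.5, 56.9 and 18.7 TPM at 12W HFD, with 1 library inside the 3W range (-1.11 ± 0.29, adjusted p = 0.00768), and its call held without any single library as well. Smarca2 changed by -0.56 ± 0.17 (adjusted p = 0.021, or 0.057 without 12W HFD replicate 2). Cbx6, a Polycomb chromobox protein, changed by -0.83 ± 0.28 (adjusted p = 0.0454) with 7.69 to 11.4 TPM at 12W HFD and 13.0 to 25.7 TPM at 3W, and lost its call without any 1 of the 5 libraries of 12W HFD or without 3W replicate 1, 3, 4 or 6 (adjusted p 0.0578 to 0.109). Kdm5b, a lysine 4 demethylase, was next (-0.51 ± 0.21, adjusted p = 0.11). Without 12W HFD replicate 2 the count was 2. All 20 macrophage markers and 12 of 13 lymphocyte markers were called higher in the same comparison, as were 4 of 16 endothelial markers (Cldn5, Plvap, Flt1 and Pecam1). Of 18 adipocyte markers Cfd, Adipoq and Retn were called lower and Lep higher, and of 24 immediate early genes, which respond to cell handling, 3 were called lower and 1 higher (median -0.64). Of 16 fibroblast and progenitor markers 5 were called lower and 2 higher. The part of any of these in the 4 results was not tested.

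**Figure D4:**
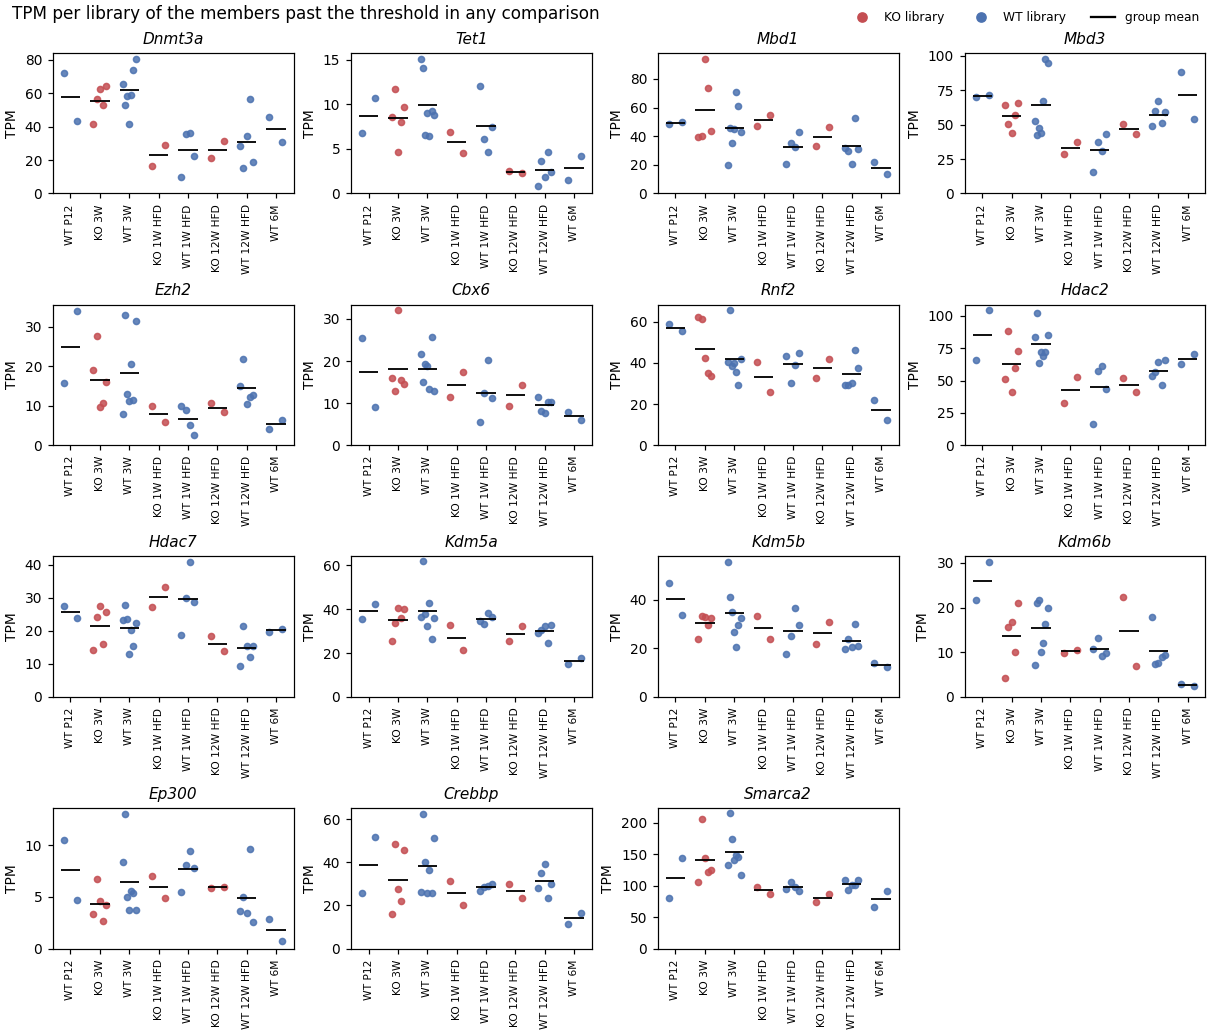
TPM of the 15 members past the threshold in any comparison, in each of 29 RNA libraries by group, with KO libraries in red, WT libraries in blue and a line at the group mean. Dnmt3a lies at 10.1 to 36.3 TPM in WT after 1W HFD and at 41.4 to 80.6 TPM in WT at 3W, and Kdm6b at 2.54 and 2.89 TPM at 6M.

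The oldest cells, WT at 6M on regular diet, had the most calls when set against 3W. Of the 43 members 11 were called lower and 0 higher (25.6% of members; 10.8% of all genes were called, and 6.85% called lower). At an unadjusted p under 0.05 stood 13 of 43 (30.2%), against 25.1% of all genes. By role these were 3 of 4 lysine demethylases (Kdm5a, Kdm5b, Kdm6b), 2 of 3 histone writers and coactivators (Ep300, Crebbp), 2 of 6 Polycomb complex 1 members (Rnf2, Cbx6), and 1 each of Polycomb complex 2 (Ezh2), the TET dioxygenases (Tet1), the methyl-CpG binding proteins (Mbd1) and the SWI/SNF subunits (Smarca2). None of the 11 deacetylases was called, nor any of Dnmt1, Dnmt3a, Dnmt3b and Uhrf1. TPM of most genes was lower at 6M: the median of all genes was -0.24, against -0.53 for the members, with the median over all genes at -0.03 once columns were scaled by median ratios. Changes at 6M are to be read against that shift, and with that scaling 5 of the 11 calls held (Kdm5a, Kdm5b, Kdm6b, Rnf2 and Tet1), which is 11.6% of members, against 10.1% of all genes called under it and 3.63% called lower.

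Kdm6b (ENSMUSG00000018476, chromosome 11, 69398508 to 69413675), which removes methyl groups from lysine 27 and so opposes Ezh2, read 2.89 and 2.54 TPM at 6M, and 7.05 TPM (lowest), 16.2 TPM (median) and 21.8 TPM (highest) at 3W. Both 6M libraries lay below the whole 3W range (-2.06 ± 0.46, adjusted p = 0.00394). The lysine 4 demethylase Kdm5a read 15.2 and 17.9 TPM at 6M, against 26.5 TPM (lowest), 36.3 TPM (median) and 61.8 TPM (highest) at 3W (-1.15 ± 0.24, adjusted p = 0.00231). Kdm5b read 13.8 and 12.4 TPM at 6M, against 20.4 TPM (lowest), 32.3 TPM (median) and 55.7 TPM (highest) at 3W (-1.27 ± 0.29, adjusted p = 0.00453). Neither gene showed overlap.

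Rnf2, the ubiquitin ligase of Polycomb complex 1, read 21.9 and 12.4 TPM at 6M, and 29.3 TPM (lowest), 40.1 TPM (median) and 65.6 TPM (highest) at 3W (-1.25 ± 0.28, adjusted p = 0.00433). Crebbp, an acetyltransferase and coactivator, read 11.5 and 16.4 TPM at 6M, against 25.9 TPM (lowest), 36.4 TPM (median) and 62.6 TPM (highest) at 3W (-1.34 ± 0.36, adjusted p = 0.0149). Its relative Ep300 read 2.88 and 0.78 TPM at 6M, against 3.71 TPM (lowest), 5.33 TPM (median) and 13.0 TPM (highest) at 3W (-1.39 ± 0.44, adjusted p = 0.0418). In all 3 genes both 6M libraries were below every 3W library.

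The remaining calls were Smarca2 at 66.5 and 92.1 TPM (-0.94 ± 0.23, adjusted p = 0.00749), Tet1 at 1.47 and 4.18 TPM (-1.55 ± 0.43, adjusted p = 0.019), Mbd1 at 21.7 and 13.9 TPM (-1.26 ± 0.37, adjusted p = 0.0276), Cbx6 at 7.77 and 5.98 TPM (-1.25 ± 0.39, adjusted p = 0.0353) and Ezh2 at 4.12 and 6.36 TPM (-1.49 ± 0.48, adjusted p = 0.0425), all levels at 6M. Only Mbd1 overlapped its 3W range, which began at 20.1 TPM. In all, 11 of 43 members lay below every 3W library, Arid1a with them (adjusted p = 0.0641) and Mbd1 not, against 11.9% of all genes. With 1 member above, groups did not overlap for 12 of 43 (27.9%), against 17.3% of all genes.

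With 2 libraries at 6M, single libraries weigh heavily. Without replicate 1 of 6M 4 calls held (9.3% of members; 4.97% of all genes were then called, 3.36% lower), and without replicate 2 again 4 (5.66% of all genes, 2.31% lower). Of the 11, those lost without replicate 1 were Cbx6, Crebbp, Ezh2, Kdm5a, Mbd1, Smarca2 and Tet1 (adjusted p 0.0632 to 0.343), and those lost without replicate 2 were Cbx6, Ep300, Ezh2, Kdm5b, Kdm6b, Mbd1 and Rnf2 (0.0583 to 0.534). Leaving out a 3W library ended the call of Cbx6 (replicate 3 or 6), Ep300 (replicate 1 or 2) or Ezh2 (replicate 2, 5 or 7), with adjusted p from 0.052 to 0.0704. A fit on these groups alone called only Kdm6b. Of the macrophage markers 18 of 20 and of the lymphocyte markers 7 of 13 were called higher at 6M, the second list with sums of 810.5 and 48593.9 TPM at 6M and 3.9 to 45.9 TPM at 3W. Other signs lay lower with the members at 6M. Of 24 immediate early genes 4 were above 0 (median -0.71), with Nr4a2 (-4.03) and Fosb (-1.79) called lower, as were the endothelial Emcn (-3.01) and Kdr (-2.36), the mesothelial Wt1 (-1.30) and 4 of 16 fibroblast and progenitor markers. The replication genes Mcm7 (-2.13) and Prim1 (-1.79) were called lower too. The part of any of these in the lower levels of the members was not tested.

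Further chromatin genes were called at 6M against 3W, in lists chosen with earlier results of these data known, and with the same median shift of all genes. Their counts stand against 6.85% of all genes called lower, and a share near that is not a result about a list. Of 27 further histone methyltransferases 5 were called lower and 0 higher, with a median of -0.73; the smallest p were those of Kmt5b (-1.33 ± 0.30, adjusted p = 0.00396) and Nsd1 (-1.15 ± 0.29, adjusted p = 0.00963). Of 18 further acetyltransferase genes 3 were called lower (median -0.78), with the smallest p for Ing4 (-1.01 ± 0.24, adjusted p = 0.00743) and Hat1 (-1.36 ± 0.36, adjusted p = 0.0145). Of 16 further demethylases 3 were called lower (median -0.50), among them Jmjd1c (-1.66 ± 0.37, adjusted p = 0.00403) and Kdm2a (-0.96 ± 0.26, adjusted p = 0.0171). Of 24 Polycomb partners 2 were called lower, Pcgf2 (-2.08 ± 0.55, adjusted p = 0.014) and Rbbp7 (-0.93 ± 0.26, adjusted p = 0.018). Among 24 corepressor genes Tbl1x was called lower (-0.83 ± 0.24) and Sirt7 higher (0.80 ± 0.24), and among 19 SWI/SNF partners and 16 cytosine turnover genes 1 each was called lower, Arid2 (-1.72 ± 0.45) and Gadd45b (-1.72 ± 0.49). In WT after 1W HFD against 3W the same 7 lists gave 3 calls (8.03% of all genes were called), Ing2 lower (-1.46 ± 0.31, adjusted p = 0.00369), Jmjd6 lower (-0.57 ± 0.18, adjusted p = 0.0435) and Kdm1b higher (0.82 ± 0.26, adjusted p = 0.0499). In WT at 12W HFD against 3W they gave 8 calls (14.2% of all genes were called, 6.23% lower), with Ing1 (-0.71), Ing2 (-0.88), Ing4 (-0.59), Ncoa1, Sirt3 (-0.88) and Rbbp7 (-0.61) lower, and Smyd2 (0.80) and Sap30 (1.33) higher.

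WT at 12W HFD was last set against 6M, the group nearest to it in age. The groups still differ in age as well as in diet, so these cannot be told apart here either. No member passed (0.881% of all genes passed), and 10 of 43 had an unadjusted p under 0.05 (23.3%, against 14% of all genes). The smallest were Rnf2 (1.00 ± 0.29, adjusted p = 0.0974), Kdm5a (0.82 ± 0.25, adjusted p = 0.111), Kdm6b (1.52 ± 0.48, adjusted p = 0.115), Crebbp (1.10 ± 0.37, adjusted p = 0.15) and Ezh2 (1.29 ± 0.50, adjusted p = 0.221). In all 5 the 12W HFD libraries lay above both 6M libraries, as for 9 of 43 members and 16.5% of all genes. Groups did not overlap for 10 of 43 (23.3%), against 20.7% of all genes, and the median of all genes was 0.22.

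KO cells were followed along the diet in their own libraries, 2 to 5 per group. After 1W HFD against 3W no member passed (0.862% of all genes), and 5 of 43 had an unadjusted p under 0.05 (11.6%, against 11.5% of all genes). Dnmt3a read 16.7 and 28.9 TPM in KO cells after 1W HFD, and 41.6, 56.4, 62.5, 53.0 and 64.2 TPM in KO cells at 3W. The groups did not overlap, and the change was -1.28 ± 0.41 (adjusted p = 0.157). Smarca2 (-0.55 ± 0.24, adjusted p = 0.339), Mbd3 (-0.74 ± 0.32, adjusted p = 0.353), Suz12 (-1.24 ± 0.56, adjusted p = 0.378) and Dnmt3b (0.85 ± 0.41, adjusted p = 0.424) followed. Smarca2 read 98.5 and 87.0 TPM after 1W HFD, with 105 to 205 TPM at 3W, and Mbd3 28.6 and 37.6 TPM, with 43.6 to 65.8 TPM at 3W. Both diet libraries lay below all 3W libraries for these genes. Groups did not overlap for 5 of 43 members (11.6%), against 14.3% of all genes. Of the macrophage markers 4 of 20 were called higher after 1W HFD, as were the mesothelial Lrrn4 and 1 of 16 fibroblast and progenitor markers (Dpp4), and their part was not tested. These KO libraries share none with the WT comparison in which Dnmt3a, Smarca2 and Mbd3 were called. The titles pair the KO libraries at 3W with WT libraries at 3W, however, so the comparisons may not be independent.

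At 12W HFD against 1W HFD in KO cells no member passed (0.76% of all genes), and 2 of 43 had an unadjusted p under 0.05 (7.95% of all genes). Hdac7 read 18.5 and 13.8 TPM at 12W HFD, and 27.2 and 33.2 TPM at 1W HFD (-0.87 ± 0.39, adjusted p = 0.535). Bmi1 read 9.49 and 11.6 TPM at 12W HFD, and 4.18 and 4.68 TPM at 1W HFD (1.08 ± 0.53, adjusted p = 0.625). Tet1 (-0.97 ± 0.54), Uhrf1 (-1.43 ± 0.87) and Hdac3 (-0.48 ± 0.31) had the next smallest p. Of 11 mesothelial markers 0 were above 0 (median -1.87), with Lrrn4 called lower (-2.55 ± 0.39, adjusted p = 0.000768). The macrophage markers Cd68, Ctss and Tyrobp were called higher and Cd34 lower, and the part of these in the Hdac7 and Bmi1 values was not tested. With 2 libraries a side, groups do not overlap for 37.6% of all genes and for 16 of 43 members (37.2%).

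**Figure D5:**
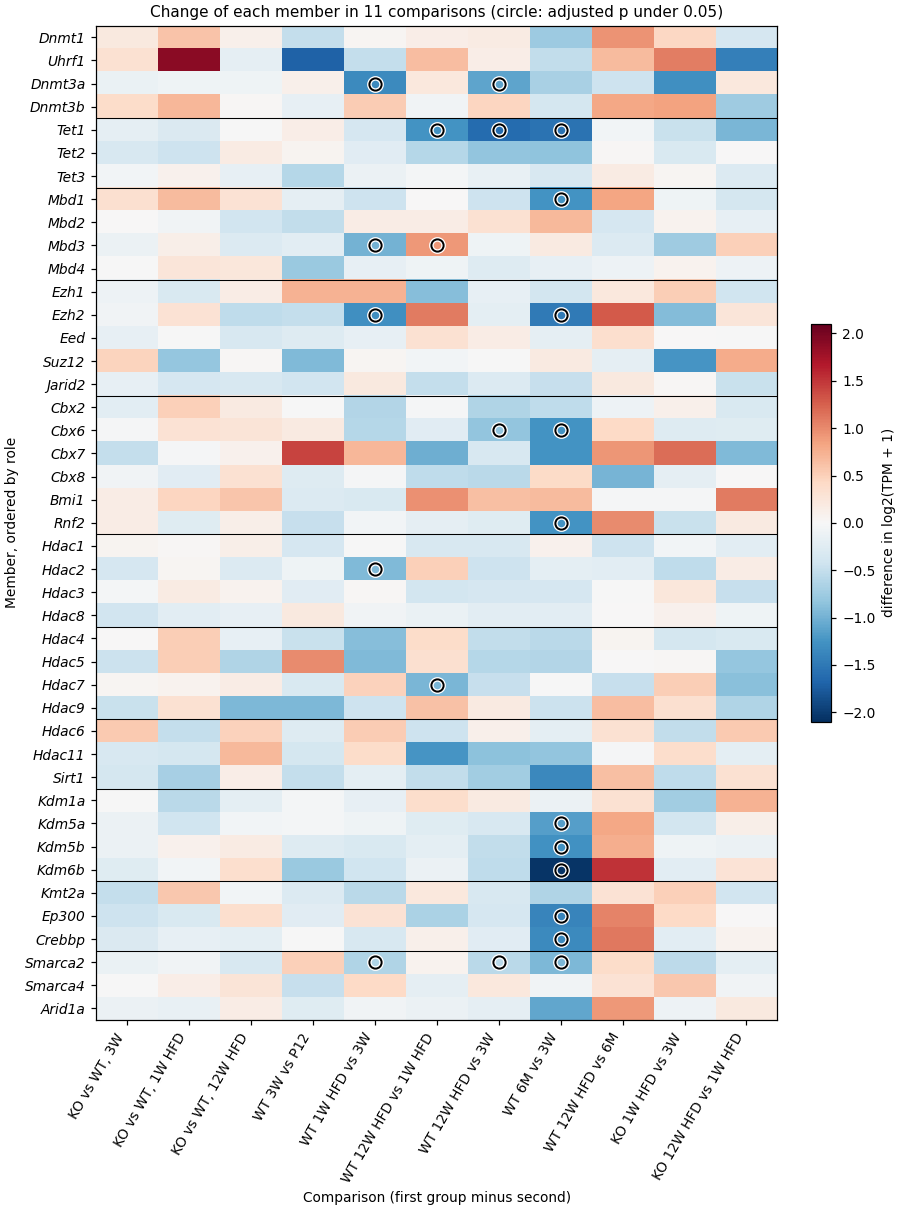
Difference in log2(TPM + 1) of each of 43 members (rows, by role) in 11 comparisons (columns, first group minus second), with blue for lower and red for higher in the first group and a circle where the limma adjusted p is under 0.05. The 23 circles lie in 4 WT comparisons, 11 of them in 6M against 3W and 0 in the 3 columns of KO against WT.

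The deposited ATAC-seq peaks give another readout of the same genes. Promoters were taken from RefSeq (GRCm38.p6), which matched 36 of 43 members, and a gene was counted as open where a peak of a library's list overlapped 1000 bases before to 100 bases after one of its starts. Of the 36, 34 had a peak in all 9 libraries (94.4%), against 85.2% of 11311 tested genes with an entry. These 11311 genes were not matched to the members in RNA level, and its part in the higher share was not tested. The gaps were Bmi1 and Hdac9, both absent from the list of WT 3W replicate 2, which holds the fewest peaks (55990, against up to 93314). Where the peak's summit had to lie inside the window, 17 of 36 had one in all 9 libraries (47.2%), against 28.2% of all genes with an entry. The authors' fold enrichment at the strongest promoter peak ranked Hdac4 highest, at a median percentile of 99.9 within a list, and Hdac9 lowest, at 49.65. Dnmt3a stood at 83.0, Tet1 at 87.0, Smarca2 at 97.7 and Mbd3 at 98.7. The median promoter of all genes stood at 89.4 to 93.1 in a library, and that of the members at 89.1 to 93.4, so Dnmt3a and Tet1 lay below the typical promoter. As each list was called on its own library, no change between KO and WT or along the diet was computed from them; in 8 of 9 libraries all 36 members had a peak.

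CpG content varied widely among these promoters. Over the 300 bases from 250 before to 50 after the start, members held a median of 30 CpG dinucleotides (for genes with several starts, the richest one), against 21 over all genes with an entry. Dnmt3a, at 47, was among the richest, and Hdac9, the least abundant deacetylase in WT at 3W, was the poorest, at 3. The 250 bases before one start of each are shown with CpG in capitals, for Dnmt3a GRCm38.p6 chr12:3806910-3807159, plus strand (40 CpG), and for Hdac9 chr12:34917096-34917345, minus strand (0 CpG), a start that opens a transcript far upstream of the other.
Dnmt3a: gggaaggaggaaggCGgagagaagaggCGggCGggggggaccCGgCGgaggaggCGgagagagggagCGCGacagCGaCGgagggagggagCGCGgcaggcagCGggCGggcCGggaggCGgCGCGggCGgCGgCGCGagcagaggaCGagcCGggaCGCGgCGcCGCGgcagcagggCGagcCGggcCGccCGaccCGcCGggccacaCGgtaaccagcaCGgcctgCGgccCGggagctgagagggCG
Hdac9: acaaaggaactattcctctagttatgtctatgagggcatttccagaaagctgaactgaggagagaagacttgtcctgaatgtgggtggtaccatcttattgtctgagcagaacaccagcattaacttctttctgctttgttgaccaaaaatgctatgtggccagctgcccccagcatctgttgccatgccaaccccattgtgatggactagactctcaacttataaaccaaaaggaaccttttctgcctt

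The E2F consensus (TTTCCCGC, TTTCGCGC, TTTGCCGC or TTTGGCGC, either strand) was found in the 300 bases of 5 of 36 members (13.9%), Arid1a, Dnmt1, Ezh2, Suz12 and Uhrf1, and in 4.42% of all genes with an entry. Every one of these E2F words holds a CpG, and the members were richer in CpG (median 30, against 21 over all genes). The part of CpG content in the higher share was not tested. The cell cycle element CHR (TTTGAA, either strand) was found in 8 of 36 (22.2%) and in 14.9% of all. A match describes these letters in this window and nothing about binding.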

How the data were processed

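RNA levels were the authors' deposited TPM values for 25746 genes in 29 libraries, and peaks were their deposited lists for 9 ATAC-seq libraries, with a fold enrichment ratio, a −log10 p-value, a −log10 q-value and a score for each peak. Tools in the submitters' processing notes are Bowtie2 2.3, FastQC, MACS2, RSEM, STAR 2.5.3a and Trim Galore 0.6, with the build mm10 and no roles or settings. TPM keeps no read depth, so the depth and the precision of low values are unknown.

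The 15659 genes that reached 1 TPM in 2 or more libraries were fitted as log2(TPM + 1), which understates changes of low genes, with limma 3.58.1 in R 4.3.3: 8 group means, 21 residual degrees of freedom, a mean-variance trend and Benjamini-Hochberg adjustment over all 15659 genes at 0.05. Single values were compared by exact permutation. The fit was tested on simulated data. Python 3.11.15, pandas 2.3.3, SciPy 1.17.1 and matplotlib 3.10.9 served for the rest. No 2 columns of a group were identical.

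The members and the gene lists were chosen with earlier results of these data known. The text names each member past the threshold, where fewer than 5 passed also those with the smallest p up to 5, the pairs of related members, and the 2 genes with the smallest p of a further list. Alternatives were a pseudocount of 0.1, no filter on low values, median-ratio scaling, columns rescaled to a common sum, the compared groups alone, a replicate block and leaving out each library. At 3W the titles give some KO and WT libraries a shared pair number. The correlation of paired deviations from the group means ran from -0.131 to 0.482 over 6 pairings, with 5 above 0.1. Libraries of different pairs ran from -0.266 to 0.147. The main fit did not treat the samples as paired, and these values do not show that paired libraries are unrelated.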

Additional observations from a re-analysis of the deposited data

Results flagged for a closer look

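In groups of 4 to 10 libraries, 6 of 172 sets of values held 1 library far from the others (3.49%), and chance flags about 1 in 20. Kdm6b read 17.98 TPM in WT 12W HFD replicate 1, with the others of that group at 7.40 to 9.35 TPM. Cbx7 read 17.16 TPM in WT 12W HFD replicate 4, with the others at 2.25 to 2.99 TPM. Cbx8 read 12.23 TPM in KO 3W replicate 2, with the others at 5.24 to 6.50 TPM. Cbx6 read 32.09 TPM in KO 3W replicate 3, with the others at 12.94 to 15.93 TPM. In WT 3W replicate 2, Tet2 read 42.29 TPM, with the others at 8.87 to 17.19 TPM, and Tet3 read 6.10 TPM, with the others at 1.90 to 3.11 TPM. That library has the lowest column sum (918008 TPM) and the most genes at 1 TPM or more (12825).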

How the results depend on the processing

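Of 23 member calls, 23 held with a pseudocount of 0.1 and with columns rescaled to a common sum, 20 without a filter, 16 with median-ratio scaling and 7 in fits on the compared groups alone, and 0 changed sign. The count at 6M against 3W was 11, with 5 under median-ratio scaling, 1 with the compared groups alone and 4 to 11 with each library left out. The count after 1W HFD against 3W was 5, with 2 with the compared groups alone and 1 to 5 with each library left out. For 12W HFD against 1W HFD it was 3, with 1 with the compared groups alone and 1 to 3 with each library left out, and for 12W HFD against 3W it was 4, with 2 to 5. The other comparisons had 0 under every alternative run. With the replicate block the counts were 0 at 6M against 3W, 0 after 1W HFD against 3W, 0 for 12W HFD against 1W HFD and 1 for 12W HFD against 3W. For KO against WT at 3W the block was the pair of the titles, with 5 residual degrees of freedom. In the other comparisons it was the replicate number, which does not pair the samples. The block left 1 to 5 residual degrees of freedom, and it could not be fitted for the interaction terms. Leaving out single libraries turned 3 uncalled changes: Dnmt3b between KO and WT after 1W HFD was -0.0659 without KO replicate 1 and up to 1.46 otherwise, and the KO effect at 12W HFD minus 3W ran from -0.174 to 1.38 for Kdm6b (lowest without KO 12W HFD replicate 1) and from -0.0763 to 1.10 for Tet2 (lowest without KO 12W HFD replicate 2). With a replicate block by the pairs of the titles, added after the data were seen, the Tcf21 difference at 3W was -0.888 (exact p = 0.0625, the smallest possible). With each library left out the Tcf21 difference ran from -1.13 to -0.744 at 3W, from -1.18 to -0.244 after 1W HFD and from -1.92 to -0.587 at 12W HFD, where exact permutation p was 0.0667 to 0.333. Members with a promoter peak in all 9 libraries numbered 34, and 17 where the summit had to lie in the window. The causes were not tested. Groups of 2 libraries limit what can be called, and unknown read depth limits what low values such as those of Uhrf1, Dnmt3b and Hdac9 can show.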
